A study of Mus musculus with 12 samples.

Results

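The stefins and cystatins are inhibitors of papain-like cysteine proteases, and 6 of their genes, Stfa1, Stfa2l1, Stfa3, Cstb, Cst3 and Cst7, were followed across 12 arrays of mouse blood monocytes. All 6 members were on the array, among 23279 genes with a symbol. They were listed by family, and the family was chosen by the TRIM33 minus WT difference of these same arrays, so that difference is described here and not tested on the members. RNA came from 6 TRIM33 and 6 WT samples of C57BL/6 LyzCre mice aged 6 to 8 weeks. LyzCre names a recombinase expressed from a lysozyme locus in myeloid cells, the strain label is the same for both genotypes, and the sources do not say whether WT mice carry the recombinase. Monocytes were sorted by CD11b, CD115 and high Ly6C, the surface phenotype of inflammatory monocytes. The series concerns the resolution of colonic inflammation when mature myeloid cells lack TRIM33, a chromatin-bound partner of SMAD proteins. The titles call 2 arrays of each genotype a mix, without saying of what. The labels do not tie arrays to animals, so standard errors and p-values cover only the spread from array to array, part of which may be technical.

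Stefins, or type 1 cystatins, are small proteins without a secretion signal that stay in the cytosol and block cathepsins that leak from lysosomes or are taken up. The mouse carries an expanded cluster of stefin A genes, of which Stfa1, Stfa2l1 and Stfa3 are members, and a single-copy stefin B gene, Cstb. Type 2 cystatins carry a signal peptide. Cystatin C, the product of Cst3, is secreted by most cells and inhibits cathepsins outside them, while cystatin F, the product of Cst7, is made by leukocytes, goes to endosomes and lysosomes and acts there on cathepsin C and related proteases. Stefin A transcripts are well known from mouse neutrophils and skin, and Cst7 from natural killer cells, cytotoxic T cells and myeloid cells.

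Stfa1, Stfa2l1 and Stfa3 lie in a single cluster on chromosome 16, and the 250 bases before their transcription starts are shown because the transcripts of these 3 neighbours differed between genotypes to unequal extents. Csta3, which lies between Stfa2l1 and Stfa1, is printed beside them as a neighbour with little difference. Its mean reading over all arrays was 2.17, which may not be above background. The sequences are RefSeq's (build GRCm38.p6), 5′ to 3′ on the gene's strand, and capitals mark every run of 10 or more bases found in all 3 of the Stfa1, Stfa2l1 and Stfa3 windows. Stfa1 is at chr16:36276898-36277147 on the plus strand, Stfa2l1 at chr16:36156561-36156810 on the plus strand, Stfa3 at chr16:36455393-36455642 on the minus strand and Csta3 at chr16:36210153-36210402 on the plus strand.
Stfa1 promoter: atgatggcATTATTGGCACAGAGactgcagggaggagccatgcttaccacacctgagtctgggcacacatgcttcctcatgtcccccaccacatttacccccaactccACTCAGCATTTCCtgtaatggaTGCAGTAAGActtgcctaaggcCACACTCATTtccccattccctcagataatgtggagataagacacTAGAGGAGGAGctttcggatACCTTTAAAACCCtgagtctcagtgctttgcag
Stfa2l1 promoter: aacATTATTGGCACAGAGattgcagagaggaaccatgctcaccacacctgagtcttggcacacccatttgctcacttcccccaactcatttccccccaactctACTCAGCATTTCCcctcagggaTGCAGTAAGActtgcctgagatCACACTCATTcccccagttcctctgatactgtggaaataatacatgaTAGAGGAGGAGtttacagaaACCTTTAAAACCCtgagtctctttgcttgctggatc
Stfa3 promoter: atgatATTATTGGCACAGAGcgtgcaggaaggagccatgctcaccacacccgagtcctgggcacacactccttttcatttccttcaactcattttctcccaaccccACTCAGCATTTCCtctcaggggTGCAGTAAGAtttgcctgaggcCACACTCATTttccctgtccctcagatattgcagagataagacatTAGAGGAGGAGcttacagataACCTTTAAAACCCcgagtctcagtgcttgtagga
Csta3 promoter: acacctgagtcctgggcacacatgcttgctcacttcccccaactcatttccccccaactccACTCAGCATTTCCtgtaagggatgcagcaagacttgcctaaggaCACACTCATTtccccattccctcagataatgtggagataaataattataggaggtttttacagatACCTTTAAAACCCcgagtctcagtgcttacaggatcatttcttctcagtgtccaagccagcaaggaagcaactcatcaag

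The shared runs covered 72 of the 250 bases in each of the 3 stefin windows, in 6 blocks. Aligned end to end, the Stfa1 window was identical to that of Stfa3 at 85.2% of its 250 bases. The value was 83.2% for Stfa2l1 and 72.8% for Csta3. Bases left unpaired by the alignment counted as differences here. Of the paired bases, 213 of 245 were identical for Stfa3, 208 of 243 for Stfa2l1 and 182 of 202 for Csta3. The lower percentage of Csta3 thus goes with fewer paired bases and does not show that its paired bases differed more. Among the windows of Csta1, Csta2, Csta3, Stfa1, Stfa2, Stfa2l1 and Stfa3, the ones aligned, Stfa2l1 and Stfa2 were the closest pair, at 90.8%. The longest run, ATTATTGGCACAGAG, occurred in 5 genes among 32851 promoter windows, all in this cluster: Cstdc5, Stfa1, Stfa2, Stfa2l1 and Stfa3. The run ACCTTTAAAACCC, which holds the AT-rich letters TTTAAA, began 33 bases before the start of Stfa1, 36 before that of Stfa2l1 and 34 before that of Stfa3, and occurred in 8 genes, all of the cluster. In the Csta3 window the same run began 80 bases before the start, further away than in the 3 members. The longest run began 242 to 247 bases before the start in the members. A counterpart in Csta3 may thus lie outside its 250 bases, and its absence there is not read as a difference in sequence. TTTAAA itself, which reads the same on both strands, was found in 12.1% of all windows. Letters of a SMAD element, CAGAC, searched on both strands, occurred in the Stfa1 window at 1 place on the opposite strand, in neither the Stfa2l1 nor the Stfa3 window, at 2 places in the window of Cst3, whose transcript differed little, and in 42.2% of all windows. Letters bound by ETS factors such as PU.1, GAGGAA, occurred on either strand in all 3 stefin windows and in 23.3% of all windows. These matches describe letters only. Of the 6 members 5 had a promoter record, and Cstb is named only.

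The deposited values are log2 expression per gene, so a difference of 1 is a doubling, and the differences below are TRIM33 minus WT. Array medians lay between 4.16 and 4.25. The targeted gene followed its label, with Trim33 at 6.06 to 6.23 on the TRIM33 arrays and 6.81 to 7.05 on the WT arrays. The defining transcripts of the sort were measured on every array, with Ly6c2 at 12.3 to 12.5 on TRIM33 and 12.2 to 12.4 on WT arrays, and Csf1r, which encodes CD115, at 9.73 to 11.04 on TRIM33 and 9.99 to 11.09 on WT arrays. Clustering on all genes but the members split the arrays into 2 sets of 6, each with 3 arrays per genotype. The Y set (TRIM33 replicates 1 to 3 and WT replicates 4 to 6) read Y-linked genes and held all 4 mixes, and the Xist set (TRIM33 replicates 4 to 6 and WT replicates 1 to 3) read Xist. The sets also differed in cell cycle genes, whose mean was 9.32 to 9.41 on Xist set arrays and 4.88 to 5.83 on Y set arrays. As a guide to the reading of an absent transcript, 3 Y-linked genes lay between 2.19 and 3.27 on the arrays of the Xist set, although each feature has its own background. Limma was run over all 23279 genes at a Benjamini-Hochberg adjusted p threshold of 0.05.

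**Figure D1:**
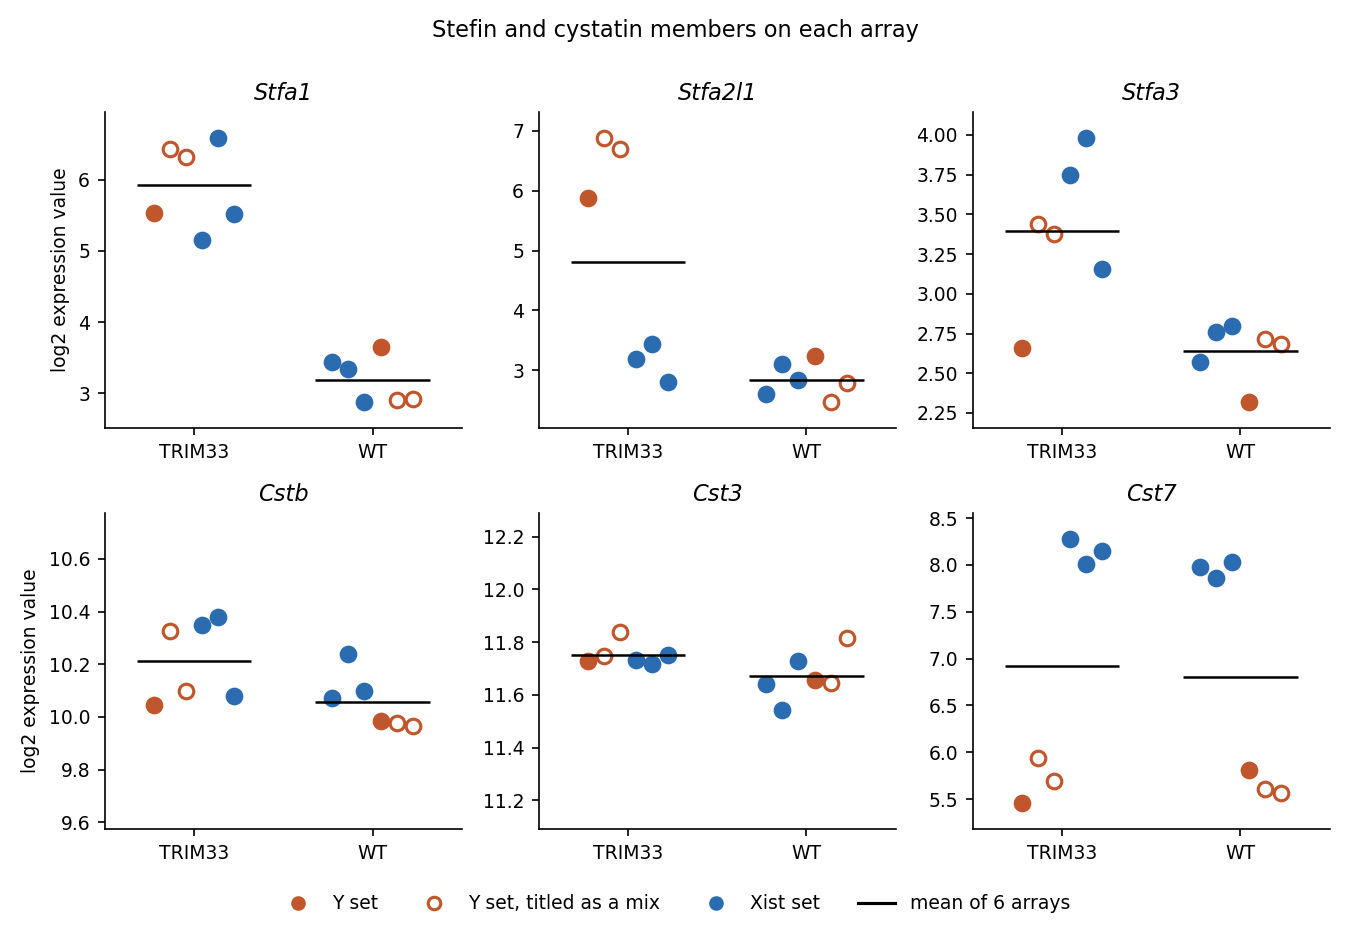
Log2 expression values of the 6 members on each of the 6 TRIM33 (left) and 6 WT (right) arrays, coloured by array set, with open circles for arrays titled as mixes and a line at the mean of 6. Stfa1 was above every WT array on all TRIM33 arrays, Stfa2l1 on the TRIM33 arrays of the Y set, and Cst7 followed the array set.

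Among the cytosolic stefins, Stfa1 was higher on every TRIM33 array. It read 5.53, 6.44 and 6.32 on the TRIM33 arrays of the Y set, against 3.65, 2.90 and 2.92 on its WT arrays. In the Xist set it read 5.15, 6.58 and 5.53 on the TRIM33 arrays, against 3.43, 3.34 and 2.88 on the WT arrays. The lowest TRIM33 array thus stood 1.5 above the highest WT array, and the groups did not overlap in either set. The mean was 5.92 ± 0.596 on TRIM33 arrays and 3.18 ± 0.331 on WT arrays (SD, n = 6 each), a difference of 2.74 (SE 0.251). Of the WT values, 2.88, 2.90 and 2.92 lay within the range that the Y-linked genes showed on the arrays of the Xist set, and 3.34, 3.43 and 3.65 lay above it. WT may thus be partly background and no fold is given, and the normalization compresses differences of dim genes. Within the sets the difference was 2.94 (SE 0.283) in the Y set and 2.54 (SE 0.318) in the Xist set, and the gap between these, 0.41 (SE 0.483), was smaller than its error.

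Stfa2l1, a neighbouring stefin A gene, was high on the 3 TRIM33 arrays of the Y set and on no other array. It read 5.88, 6.87 and 6.70 there, against 3.24, 2.48 and 2.78 on the WT arrays of the same set. In the Xist set it read 3.19, 3.44 and 2.81 on the TRIM33 arrays, against 2.60, 3.11 and 2.83 on the WT arrays, with overlapping groups. The difference was 3.65 (SE 0.284) within the Y set and 0.30 (SE 0.190) within the Xist set. All WT values lie within the range of the Y-linked genes on the arrays of the Xist set, so WT may not be above background and no fold is given. WT arrays of the Y set differed from WT arrays of the Xist set by -0.02 in this gene, while TRIM33 arrays of the Y set were 3.33 above TRIM33 arrays of the Xist set. In an interaction fit of genotype and array set over all genes, Stfa2l1 was the only gene to pass, 1 of 23279 or 0.0043% (limma, difference of differences 3.35, SE 0.371, adjusted p = 0.0116), and 981 genes had an unadjusted p under 0.05. The array sets and the members were chosen with these values known, so this p is no independent support. Leaving out single arrays gave adjusted p from 0.00113 to 0.0792, and the call was lost on leaving out any of TRIM33 replicates 4 and 6 and WT replicates 2, 3 and 6, while the difference of differences stayed between 3.15 and 3.65 over the 12 fits. Sex-linked transcripts, cell cycle level and other cell markers all move with the sets, and their parts in the high Stfa2l1 cannot be told apart. The mean of 10 Ly6C-low monocyte markers was 7.33 to 8.23 on Y set arrays and 6.17 to 6.50 on Xist set arrays. The mean of 10 dendritic cell markers was 6.44 to 7.37 on Y set arrays and 5.36 to 5.98 on Xist set arrays. Within the Y set the array that is not a mix, TRIM33 replicate 1, read 5.88, and its WT counterpart, replicate 4, read 3.24.

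Stfa3, at the other end of the cluster, showed a smaller difference in both sets. It read 2.66, 3.44 and 3.38 on the TRIM33 arrays of the Y set, against 2.32, 2.71 and 2.68 on its WT arrays, with overlap. On the arrays of the Xist set it read 3.75, 3.98 and 3.15 in TRIM33 and 2.57, 2.76 and 2.80 in WT, without overlap. The difference over all arrays was 0.75 (SE 0.186), with 0.59 (SE 0.222) in the Y set and 0.92 (SE 0.201) in the Xist set. The gap between the sets was -0.33 (SE 0.324), about its own error. All of these values are low on the scale of the array, and the WT values lie within the range of the Y-linked genes on the arrays of the Xist set, so no fold is given. The ubiquitous stefin B gene, Cstb, read 10.05, 10.33 and 10.10 on the TRIM33 arrays of the Y set and 10.35, 10.38 and 10.08 on those of the Xist set, against 9.98, 9.98 and 9.97 and 10.07, 10.24 and 10.10 on the WT arrays of the same sets, and the groups overlapped. Its difference was 0.16 (SE 0.0873), or 1.12-fold, and its 3 TRIM33 arrays of the Y set, at 10.05 to 10.33, lay just above the WT arrays of that set, at 9.97 to 9.98.

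Among the secretory cystatins neither member differed by genotype beyond the spread of the arrays. Cst3 varied least of the 6 members, at 11.72 to 11.84 on TRIM33 arrays and 11.54 to 11.82 on WT arrays, with a mean of 11.75 ± 0.0431 on TRIM33 and 11.67 ± 0.0925 on WT arrays (SD, n = 6 each). The difference was 0.08 (SE 0.0669), or 1.06-fold. Cst7 followed the array set. It read 8.27, 8.01 and 8.15 on the TRIM33 arrays of the Xist set and 7.97, 7.86 and 8.03 on its WT arrays, against 5.46, 5.94 and 5.69 on the TRIM33 arrays of the Y set and 5.81, 5.60 and 5.56 on its WT arrays. Every array of the Xist set therefore exceeded every array of the Y set, with a difference of Y minus Xist set of -2.45 in TRIM33 and -2.30 in WT. The sets were built from the same arrays, so this is a description. By genotype Cst7 differed by 0.11, with an SE of 0.666 without the set and 0.0961 with the set as a block, and by 0.04 within the Y set and 0.19 within the Xist set. Cstb, Cst3, Stfa1 and Stfa3 differed by at most 0.16 in size between the WT arrays of the sets.

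**Figure D2:**
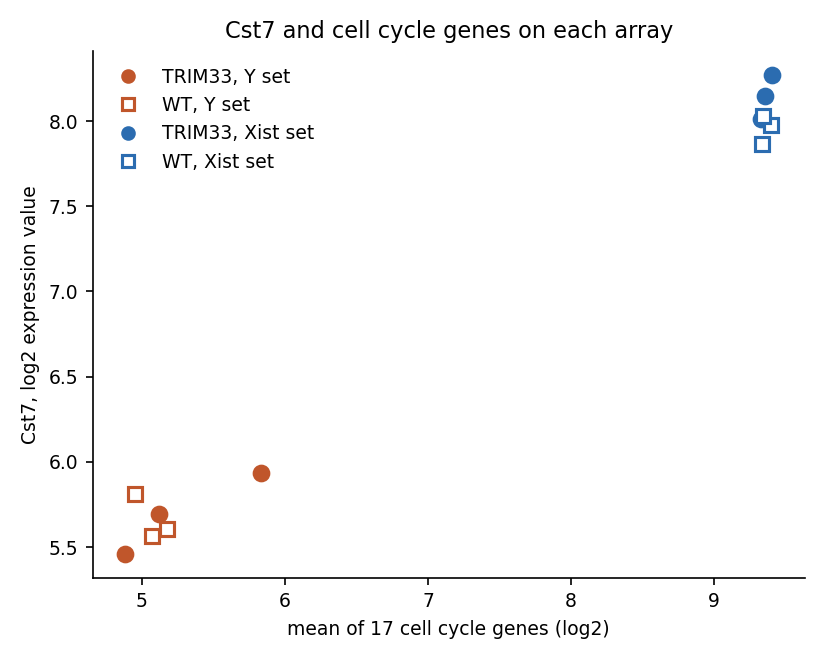
Log2 expression value of Cst7 (vertical axis) against the mean log2 value of 17 cell cycle genes (horizontal axis) on each array, with filled circles for TRIM33 and open squares for WT. The 6 arrays of the Xist set sit at 7.86 to 8.27 for Cst7, above the 6 arrays of the Y set at 5.46 to 5.94, with both genotypes in each cluster.

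Over all 12 arrays 1 of the 6 members, Stfa1, passed the threshold, against 0.0215% of all genes (5 of 23279). Adding the set to the fit as a block again left Stfa1 as the 1 member to pass, against 0.0387%. In the Y set alone 2 members passed, Stfa1 and Stfa2l1, against 0.0344% of genes, and in the Xist set alone 0 members passed by limma, against 0.0129% of genes. At an unadjusted p under 0.05 there were 2 members in that set, beside 4.99% of genes. All TRIM33 arrays exceeded all WT arrays for 1 member and for 0.103% of genes. Within the Y set this held for 3 members, Stfa1, Stfa2l1 and Cstb, and for 4.61% of genes, and within the Xist set for Stfa1 and Stfa3 and for 4.41% of genes. These counts use the contrast for which the family was picked, and nothing is read from them. The median difference of the 6 members was 0.45 and that of all genes -0.01.

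In chromosome order the differences within the stefin cluster were uneven. The cluster runs over 12 protein-coding genes, from Csta1 to Stfa3 in RefSeq's order. Besides the 3 members, 5 of them were measured, and these 5, Csta1, Csta3, Csta2, Cstdc3 and Cstdc6, differed by -0.04 to 0.17 between genotypes. Their means over all arrays, 2.11, 2.17, 2.99, 2.87 and 2.74, lay within or below the range of the Y-linked genes on the arrays of the Xist set. These 5 genes may not be above background, so their small differences do not show unchanged expression. In order, the 5 genes stood between and beside the members: Csta1 before Stfa2l1, Csta3 and Csta2 between Stfa2l1 and Stfa1, and Cstdc3 and Cstdc6 after Stfa1. The nearest measured flanking genes on both sides, 10 in all and among them Casr, the calcium-sensing receptor, and Cd86, a T cell costimulatory ligand, differed by -0.14 to 0.18. Of these 15 genes 0 passed limma, over all arrays or with the set as a block, and 0 had an unadjusted p under 0.05 in either. Cstdc4, Cstdc5, Gm7260 and Stfa2 were not analysed here. The stefin A genes are close copies, as their promoter windows show, and the probes of a feature may not tell all copies apart, so the reading of Stfa1 or Stfa2l1 may hold signal from a copy such as Stfa2.

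**Figure D3:**
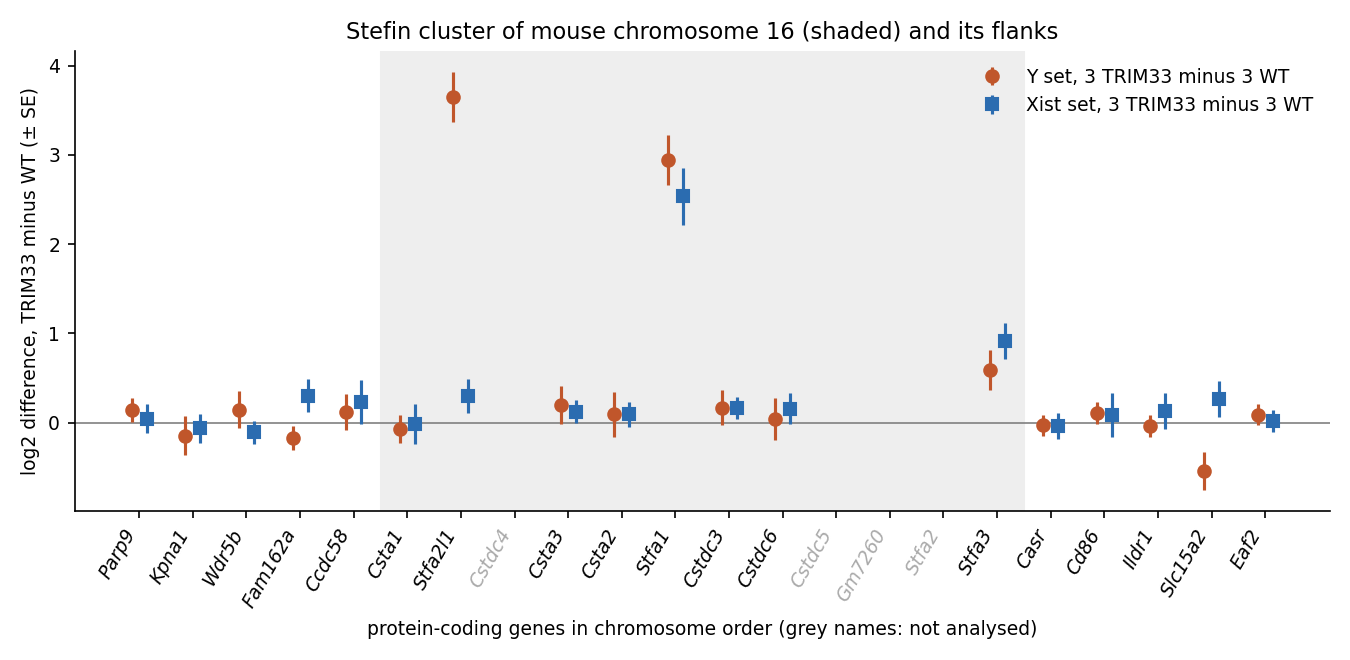
Log2 difference, TRIM33 minus WT, with its SE, for protein-coding genes in chromosome order across the stefin cluster (shaded) and 5 genes on each side, in the Y set (circles) and the Xist set (squares), 3 arrays against 3. For Stfa2l1 the circle stands at 3.65 and the square at 0.30, for Stfa1 at 2.94 and 2.54, and for Stfa3 at 0.59 and 0.92. The 5 other measured genes of the cluster, which may not be above background, lie between -0.07 and 0.20.

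Of the 32 other stefin, cystatin and cystatin-domain genes on the list, 19 were measured, and 0 passed limma in either direction, with 2 at an unadjusted p under 0.05: Hrg, at -0.26 (SE 0.0992), and Cstdc1, at 0.18 (SE 0.0847). In all, 11 lay above 0 and 8 below, from -0.26 to 0.18, with a median of 0.03 beside -0.01 over all genes. The mean of the 19 was 2.71 to 2.83 on TRIM33 arrays and 2.72 to 2.81 on WT arrays. That is within the range of the Y-linked genes on the arrays of the Xist set, as were Hrg, at a mean of 2.62, and Cstdc1, at 2.72. Many of the 19 may not be above background, so small differences do not show unchanged expression. Outside the stefins the 3 of highest mean were Ahsg and Fetub, fetuins made by the liver, and Kng2, a kininogen, with differences of -0.12, -0.04 and -0.01. The proteases that these inhibitors bind were measured in full: 0 of the 11 genes for cysteine cathepsins and legumain passed limma, with 0 at an unadjusted p under 0.05, or 1 once the set was a block, and the median difference was 0.03. Ctss, Ctsb and Ctsc, lysosomal cathepsins of myeloid cells, differed by 0.01, 0.03 and 0.07. Without the block the smallest p-values belonged to Ctsf, at -0.12 (SE 0.107), and Ctsh, at 0.10 (SE 0.104). With the block the smallest belonged to Lgmn, which encodes legumain, at 0.35 (SE 0.0986, limma adjusted p = 0.597), with 0.28 within the Y set and 0.41 within the Xist set.

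Other leukocyte protease inhibitors were listed beside the family, and 0 of the 17 measured passed limma over all genes, with 0 at an unadjusted p under 0.05, or 2 once the set was a block. Wfdc21, which encodes a small secreted protein of the whey acidic protein family, had the largest difference of that list, at 1.21 (SE 0.659). It read 3.66, 8.32 and 5.07 on the TRIM33 arrays of the Y set and 5.61, 7.68 and 6.09 on those of the Xist set, against 4.12 to 5.51 on the WT arrays. TRIM33 replicates 2 and 5 were the high arrays. With the block the smallest p of the list belonged to Serpinb8, a serpin gene, at 0.59 (SE 0.153, limma adjusted p = 0.506), with 0.41 within the Y set and 0.76 within the Xist set. Serpinb9, an inhibitor of granzyme B, differed by 0.22, Slpi, an inhibitor of neutrophil elastase, by 0.02, Cast, which encodes the calpain inhibitor calpastatin, by 0.02 and Wfdc17 by 0.25.

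**Figure D4:**
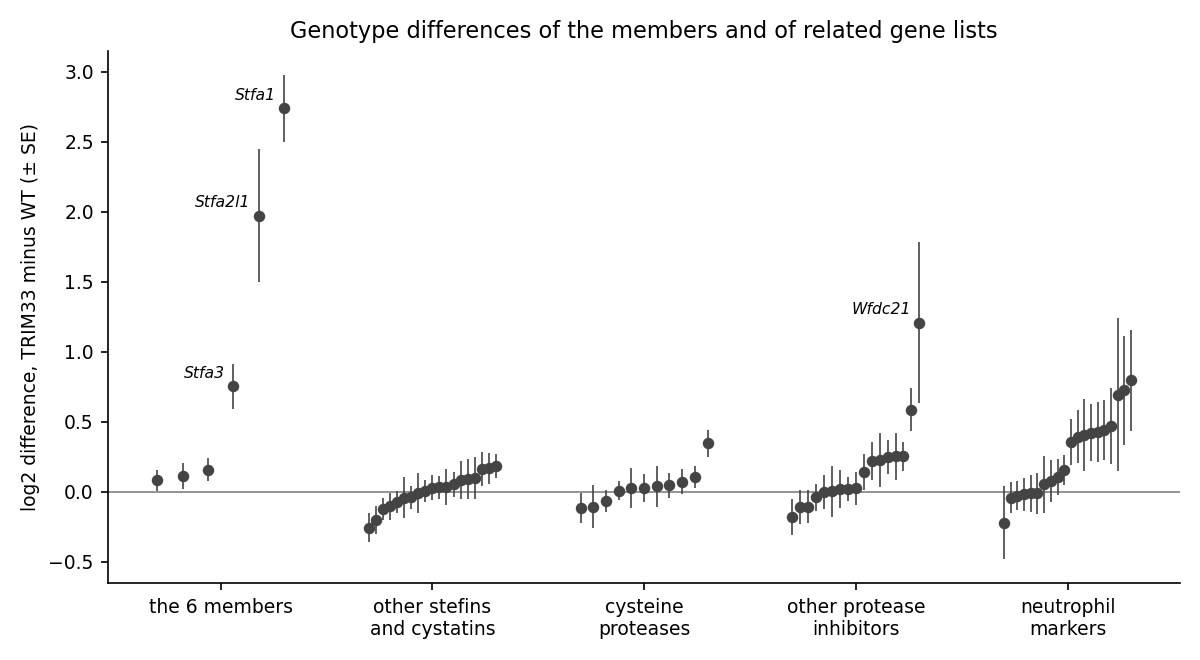
Log2 difference, TRIM33 minus WT, over all 12 arrays for the members and for 4 related gene lists, each gene a point whose bar is the SE from the set-blocked fit. Stfa1, Stfa2l1 and Stfa3 lie at 2.74, 1.97 and 0.75, the 19 other stefins and cystatins between -0.26 and 0.18, and the 11 cysteine proteases between -0.12 and 0.35.

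Because stefin A transcripts are common in neutrophils, the neutrophil markers were read beside them. Of 20 measured markers 0 passed limma, and 0 had an unadjusted p under 0.05, or 1 with the set as a block. Mmp8, the neutrophil collagenase gene, and S100a9, the partner of S100a8, had the highest means and differed by 0.08 and 0.80. The median difference of the 20 was 0.26 over all arrays, beside -0.01 over all genes, and 14 lay above 0. The mean of the 20 was 5.61, 6.57 and 5.90 on TRIM33 replicates 1, 2 and 3, and 5.75, 5.64 and 5.68 on WT replicates 4, 5 and 6, all in the Y set. The mean of TRIM33 replicate 1, 5.61, lay just below that of WT replicate 5, 5.64. TRIM33 replicate 1 read 5.53 for Stfa1 and 5.88 for Stfa2l1, above all WT arrays. It is 1 array and the gap in marker mean is small, so nothing about neutrophil RNA is read from it. TRIM33 replicate 2 stood apart, with S100a8, an abundant neutrophil and monocyte calcium-binding protein, at 10.3 against 6.88 to 8.19 on the other 5 arrays of the set. Without that array the Y set difference was 2.77 for Stfa1 and 3.45 for Stfa2l1, and both no longer passed within that set alone. In the Xist set the neutrophil mean was 7.41 to 7.66 on TRIM33 arrays and 7.17 to 7.60 on WT arrays, higher than in the Y set in both genotypes. Within the Xist set 2 abundant markers did not overlap between genotypes. S100a8 read 10.985 to 11.333 on TRIM33 and 10.55 to 10.718 on WT arrays, and S100a9 11.338 to 11.656 and 10.923 to 11.072. Their differences in that set were 0.51 (SE 0.141) and 0.49 (SE 0.134), and neither passed limma. Csf3r, Mmp8, Mmp9 and Ngp went the other way there, at -0.11, -0.12, -0.16 and -0.16. The markers also moved both ways between the sets. The Y minus Xist set difference was -6.34 for Mpo, -6.05 for Elane and -5.45 for Ctsg, but 1.02 for Csf3r, 0.74 for Cd177 and 0.49 for Mmp8. The mean therefore does not show which set held more neutrophil RNA. Whether neutrophil RNA has a part in the stefin values was not tested. In bulk samples like these, fewer cells of a type and less RNA per cell cannot be told apart.

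**Figure D5:**
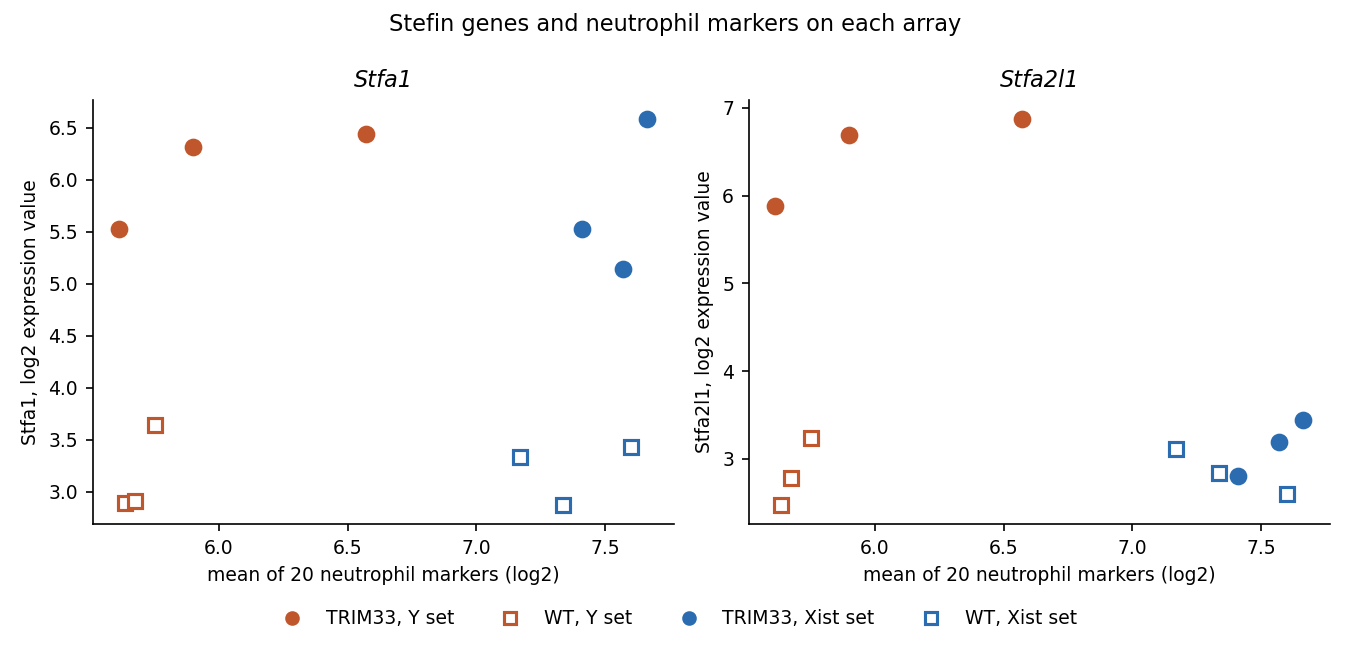
Log2 expression values of Stfa1 (left) and Stfa2l1 (right) against the mean log2 value of 20 neutrophil markers on each array, with filled circles for TRIM33 and open squares for WT. TRIM33 replicate 1, at the far left with a marker mean of 5.61, reads 5.53 for Stfa1 and 5.88 for Stfa2l1, above every WT array. Its marker mean is close to the 5.64 of WT replicate 5, and a part of neutrophil RNA was not tested.

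Markers of other cells that could carry these transcripts gave 0 genes past limma's threshold. Keratinocyte genes, 12 measured, had a median difference of -0.06 and a mean of 3.75 to 3.84 on TRIM33 arrays and 3.78 to 4.0 on WT arrays, with 0 passing limma and 0 at an unadjusted p under 0.05. Natural killer and T cell genes, 12 measured, had a median of -0.17 and a mean of 3.27 to 4.05 on TRIM33 arrays and 3.50 to 4.2 on WT arrays, with 11 of 12 below 0 and 1 at an unadjusted p under 0.05. Dendritic cell genes, 10 measured, had a median of -0.25, all 10 below 0, with 1 at an unadjusted p under 0.05. Markers of basophils, mast cells and eosinophils, 10 measured, had a median of 0.01, but Prg2, the eosinophil major basic protein gene, read 7.46, 7.53 and 7.03 on the TRIM33 arrays of the Xist set against 6.05, 5.32 and 4.81 on its WT arrays. In the Y set Prg2 read 3.74 to 3.96 on TRIM33 arrays and 3.17 to 3.84 on WT arrays, and it did not pass limma over all arrays, with the set as a block or in either set. Of the B cell, Ly6C-high and Ly6C-low monocyte and cell cycle lists, 0 genes passed limma over all arrays or with the set as a block, 0 had an unadjusted p under 0.05 in either, and their medians were -0.03, 0.08, -0.13 and 0.07. Of the Ly6C-low monocyte markers 9 of 10 lay below 0. Over all 23279 genes 10481 lay above 0.

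The genes most like each member were taken by Pearson's r over the 12 arrays, among 5454 genes with an SD of at least 0.3. The arrays share genotype and set, so these are descriptions. For Stfa1 they were Hebp1, a heme-binding protein gene (r = 0.91), Cep83, a centriole component (r = 0.90), and Apcdd1, an inhibitor of Wnt signalling (r = 0.89). For Stfa2l1 they were Arhgap6 (r = 0.92), Klra17, a Ly49-family receptor gene (r = 0.90), and Oas1g, of the oligoadenylate synthetase family (r = 0.89). Like Stfa2l1, Arhgap6 and Klra17 had larger differences in the Y set, of 1.08 and 2.69, than in the Xist set, of 0.12 and 0.90, which was not called by the interaction fit. Cst7 was nearest to Cdk1, the mitotic kinase gene (r = 0.998), Hells and Ska3 (r = 0.996 for both), all of dividing cells. Stfa3 was nearest to Zfp53, Coq3 and Zfp322a (r = 0.86 to 0.89), Cstb to Hacd2, Tpmt and Mgst3 (r = 0.89 to 0.97), and Cst3 to Fam219a, Gmppa and H2-Bl (r = 0.79 to 0.85). After the mean of each genotype within each set was removed, the genes nearest to Cst7 were Nlrp5 (r = 0.93), Cdk1 (r = 0.89) and Prtn3, a primary granule protease gene (r = 0.88). In the same residuals Stfa1 was nearest to Mir324 (r = 0.92), Mir133a-2 and Smox, Stfa2l1 to Cenpp (r = 0.91), Mrps6 and Mzt1, Stfa3 to Elovl6 (r = 0.94), Arl3 and Gna11, Cstb to E2f6 (r = 0.98), Fas and Tcp1, and Cst3 to Bard1 (r = 0.93), Wdr47 and H2ac4. Every member, the little-varying Cst3 included, thus found a nearest gene at such r among 5454 genes and 12 arrays, so no link is read from these values.

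Among the members themselves Stfa3 and Cstb had the highest r over the 12 arrays, at 0.83, and 0.75 in the residuals. Stfa1 and Stfa2l1 had 0.70 and 0.69. Both were lowest among the TRIM33 arrays of the Y set on replicate 1 and highest on replicate 2. Stfa2l1 and Cst7 ran opposite over the arrays, at -0.50, but together in the residuals, at 0.53.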

How the data were processed

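RNA of sorted blood monocytes was measured on 12 single-colour arrays, 6 TRIM33 and 6 WT. Per the labels' protocols, 900 pg of total RNA was amplified and biotinylated with the Ovation Pico V2 kit. The treatment text of the labels describes a CD4 T cell sort, but source names and design text say monocytes and were followed. The authors deposited log2 expression, summarised per gene with RMA and Partek per the submitters' processing notes. No version, chip definition or build is named there. RMA compresses differences between dim genes. Arrays carry no counting depth, and their number limits the precision.

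Of 24479 features 23281 had 1 symbol, 0 several and 1198 none. Symbols were checked by Entrez number against RefSeq (GRCm38.p6), which changed 0. For 2 symbols the feature of higher mean was kept, leaving 23279 genes. Limma 3.58.1 (R 4.3.3) was fitted on genotype over all arrays, adjusted by Benjamini-Hochberg, threshold 0.05, and tested on simulated data. The 2 array sets came from hierarchical clustering (average linkage) on 1 minus r. The members, lists, sets and alternatives were chosen with earlier results of these data known. Named were the members, the measured stefins, the 3 of highest mean and 2 of smallest p of the related lists, the 3 genes most like each member, and the 2 markers of highest mean. Hrg, Cstdc1, Lgmn, Serpinb8, S100a8, Mmp9, Ngp, Casr and Cd86 were chosen after their values were seen. Alignments used Biopython 1.88. Alternatives were the set or preparation as a covariate, each set, mixes and other arrays alone, scaling, a filter on dim genes, variance models, weights and each array left out.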

Additional observations from a re-analysis of the deposited data

Results flagged for a closer look

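The genotype difference of Stfa2l1 in the Y set exceeded that in the Xist set by 3.35 on the log2 scale (SE 0.371; limma interaction over all genes, adjusted p = 0.0116). All 3 TRIM33 arrays of the Y set exceeded the WT arrays of that set, and in the Xist set the groups overlapped. The array sets and the members were chosen with these values known, so the interaction p is no independent support. The call was lost in 5 of the 12 fits that left out 1 array, with adjusted p up to 0.0792.

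Cst3 on TRIM33 replicate 3, at 11.84, lay apart from the other 5 TRIM33 arrays, which spanned 11.72 to 11.75. Of 12 such groups of 6 arrays this was the only 1 set apart, and chance sets apart about 1 in 20.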

How the results depend on the processing

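Over all genes 5 passed. The count was 9 with the array set as a block, 8 in the Y set alone, 3 in the Xist set alone, 0 among arrays not titled as mixes (565 at an unadjusted p under 0.05) and 3 without moderation. With each array left out it ran from 5 to 9, the highest without TRIM33 replicate 4. Added after the data were seen, it was 9 with the block among arrays not titled as mixes, 9 to 15 with the block and each array left out (12 without TRIM33 replicate 3), and 3 in the Y set without TRIM33 replicate 2. The mixes share numbers across genotypes in their titles, but nothing says that the numbers pair them, and the correlation of mix 1 minus mix 2 between genotypes was 0.12. With the mix number as a replicate block 10 genes passed, against 7 without it. The interaction count was 1, 0 among genes of mean above the median (486 at an unadjusted p under 0.05), a filter that removed Stfa2l1 and Stfa3 themselves, and 0 to 2 with each array left out.

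Stfa1 was higher in TRIM33 in all 26 alternatives named under processing, by 2.37 to 3.47, and passed in all but the Xist set alone and the arrays not titled as mixes. Stfa2l1 was higher in all 25 that held it, by 0.30 to 4.15, and passed in 3: the Y set and the mixes with and without the replicate block. Stfa3 was higher in all 25 by 0.59 to 0.92 and passed in none; it passed with the block without TRIM33 replicate 1, an added alternative. Cstb and Cst3 kept a positive sign and passed in none. Cst7 spanned -0.16 to 0.40 with each array left out and turned sign without TRIM33 replicates 4, 5 and 6 (-0.16, -0.11 and -0.13) and WT replicates 4, 5 and 6 (-0.09, -0.13 and -0.14), when the sets were unbalanced, and in the Y set without TRIM33 replicate 2 (-0.083).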
